A study of Mus musculus with 18 samples.

Results

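Heat shock proteins and chaperonins were examined in mouse embryos that were wild type (Oct4 +/+) or null (Oct4 -/-) for Oct4, the transcription factor encoded by Pou5f1. All embryos were of the CD1 strain and were collected at embryonic day (E) 2.5, at E3.75 or at E4.5. Each genotype had 3 libraries at each stage, so 18 libraries in 6 groups, and the series text names 3 embryos per genotype and time. Embryos were flushed out of oviducts or uteri, no treatment is listed, and the labels do not say how the null allele was made. Genes were taken by symbol: the Hsp families with the letters a to h or a number, the J proteins of classes A, B and C, the chaperonin subunits Cct2 to Cct8 with Tcp1, and Bag1 to Bag6, leaving out pseudogenes. The rule used no measured value, although the members were chosen with earlier results of these data known. It found 57 of the 8202 genes measured at any stage, of which 53 were measured at E2.5 (among 7082 genes), 51 at E3.75 (among 6648), 47 at E4.5 (among 6545) and 45 at all stages. A further 34 genes with such symbols, among them the stress-inducible Hspa1a and Hspa1b, were not analysed here.

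Molecular chaperones bind unfolded protein chains and let them fold. HSP70 proteins work in cycles of ATP use that J proteins start and exchange factors, such as BAG proteins and HSP110, reset, and HSP90 takes over clients such as kinases and nuclear receptors. Chaperonins are ring-shaped chambers, TRiC in the cytosol (Tcp1 and the Cct subunits, which fold actin and tubulin) and Hspd1 with its lid Hspe1 in mitochondria. Other members serve the endoplasmic reticulum, where Hspa5 is the HSP70 and Hsp90b1 the HSP90. In the preimplantation mouse embryo, inducible Hsp70 genes are known for being among the earliest transcribed from the embryo's own genome.

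Values are CPM, read counts scaled to the same total in each library, and each stage was scaled on its own, so levels of different stages are set side by side without a test. Genotypes were compared with limma on log2(CPM + 1), null minus wild type, with p-values adjusted by the Benjamini-Hochberg method over all genes of the stage and a threshold of 0.05. Library depth ran from 364936 to 1922432 reads, with a deeper null median at each stage (1917754 reads against 916720, 1375610 against 576078 and 1314657 against 543033). RNA was primed at the poly(A) tail and reads lie mostly near transcript 3′ ends, so levels of different genes are not compared. Pou5f1 itself fell in null embryos at E2.5, from a mean of 1875 to 968 CPM, and at E3.75, from 509 to 258 CPM. At E4.5 its means were 231 and 111 CPM, which did not pass (limma adjusted p = 0.125), and the ratio of null to wild type means was 0.516, 0.506 and 0.483 at the 3 stages, so reads of the gene remained in libraries labelled null. Of the 8 markers listed for oviduct, uterus and cumulus cells none was measured at E2.5 or E3.75, and of the 7 for maternal blood 3 were. The summed level of these 3 globin genes was 1024 to 1437 CPM in wild type and 1076 to 1330.5 CPM in null libraries at E2.5. At E3.75 it was 115 to 177 CPM in wild type and 176 to 474 CPM in null libraries, and Hba-a1 and Hbb-bs passed the test. At E4.5 it was 149 to 268 CPM in wild type and 148 to 1085 CPM in null libraries. The part of this blood signal in the results below was not tested. The third library of each group lay near the best blend of its first and second libraries, deviating from that blend with 0.963 to 1.22 times the variance of read sampling, where first and second libraries deviated with 1.05 to 2.66 times. Calls at E3.75 are therefore also given with the first 2 libraries of each group, where Pou5f1, Hba-a1 and Hbb-bs still passed. In whole embryos, fewer cells that express a gene and less RNA per cell cannot be told apart.

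The promoters of 47 of the 57 genes were matched by symbol to RefSeq windows of 300 bases (build GRCm38.p6, 250 bases before to 50 after the start site), and 4 windows with a motif match are shown, of genes that changed at E3.75 and of Hspe1, which shares its promoter with Hspd1, which changed. Dnajb1, which changed too, had windows with none of the motifs below, and Hsp90ab1 had no window. Capitals mark motif matches found on either strand. The heat shock element, to which heat shock factors bind, was searched as GAANNTTCNNGAA and lies in 0.603% of all 32851 windows. Its shorter form GAANNTTC, contained in the first, lies in 7.86%. The endoplasmic reticulum stress element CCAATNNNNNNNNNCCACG lies in 0.119%.
Hsph1 (chr5:149636287-149636586, minus strand, heat shock element): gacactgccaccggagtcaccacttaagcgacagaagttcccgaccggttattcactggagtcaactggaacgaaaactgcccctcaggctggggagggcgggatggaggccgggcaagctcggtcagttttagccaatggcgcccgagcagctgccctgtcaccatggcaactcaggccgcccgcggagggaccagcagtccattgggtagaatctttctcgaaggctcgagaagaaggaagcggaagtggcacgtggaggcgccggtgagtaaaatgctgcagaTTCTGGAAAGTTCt
Hspe1 (chr1:55087898-55088197, plus strand, 2 overlapping heat shock elements): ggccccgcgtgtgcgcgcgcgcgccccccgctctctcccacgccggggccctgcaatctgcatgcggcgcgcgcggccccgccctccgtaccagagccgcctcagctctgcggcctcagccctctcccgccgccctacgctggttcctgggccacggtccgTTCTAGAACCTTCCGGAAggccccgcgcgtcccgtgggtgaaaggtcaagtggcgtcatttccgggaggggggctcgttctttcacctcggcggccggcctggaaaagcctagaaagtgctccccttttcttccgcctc
Bag3 (chr7:128523333-128523632, plus strand, short form): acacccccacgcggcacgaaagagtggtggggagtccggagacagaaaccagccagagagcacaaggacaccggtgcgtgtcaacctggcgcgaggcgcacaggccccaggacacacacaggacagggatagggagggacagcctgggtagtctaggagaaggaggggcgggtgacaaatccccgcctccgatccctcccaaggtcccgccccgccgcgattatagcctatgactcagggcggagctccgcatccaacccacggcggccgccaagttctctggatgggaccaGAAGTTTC
Hspa5 (chr2:34771840-34772139, plus strand, endoplasmic reticulum stress element): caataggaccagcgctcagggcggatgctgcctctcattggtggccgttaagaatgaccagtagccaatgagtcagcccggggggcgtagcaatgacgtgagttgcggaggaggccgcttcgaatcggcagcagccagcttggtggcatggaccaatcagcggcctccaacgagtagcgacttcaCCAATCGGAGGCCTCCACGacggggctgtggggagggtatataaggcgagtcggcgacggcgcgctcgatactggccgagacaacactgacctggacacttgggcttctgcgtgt

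The longer heat shock element was found at 4 of the 47 matched genes, Hsph1, Hspd1, Hspe1 and Dnajb6, and the shorter form at 11; over all 27025 symbols with a window the shares were 0.662% and 9.04%. Hspd1 and Hspe1 lie head to head on opposite strands of chromosome 1: a window of Hspd1 and that of Hspe1 share 285 bases, and the matches of both genes are the same stretch, 89 to 72 bases before the Hspe1 start site when counted on its strand. The match of Hsph1 lies past the start site, at bases 37 to 49. The endoplasmic reticulum stress element was found at Hspa5, Hsp90b1 and Dnajc3, which encode chaperones of that compartment, and at Hspa5 it ends 47 bases before the start site. A match is a string of letters and not a measured binding site.

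At E3.75, the blastocyst stage, 6 of the 51 measured genes passed the test (11.8%), beside 8.2% of all 6648 genes. Hspa5, Hsp90ab1 and Bag3 rose in null embryos, and Hsph1, Hspd1 and Dnajb1 fell, 3 genes in each direction, beside 3.6% of all genes that rose and 4.6% that fell. The median difference of the 51 genes was 0.02, beside -0.04 over all genes, so the 2 directions were mixed within the group and the greatest of the 6 changes was a 1.63-fold ratio of means, for Bag3. With the first 2 libraries of each group none of the 6 passed (limma adjusted p from 0.0734 to 0.308), beside 2.33% of all genes. Their differences were then 0.43 for Hspa5, 0.20 for Hsp90ab1, 0.77 for Bag3, -0.35 for Hsph1, -0.56 for Hspd1 and -0.42 for Dnajb1. On recovered reads edgeR called 8, Hspb8 and Hsp90b1 beside the 6 (8.3% of all genes), and DESeq2 called 3, Hspa5, Hsph1 and Hspd1 (4.33%). A fit over all 18 libraries called 3 of the 45 genes it held (3.92% of all genes), and without wild type library 3 limma called 2 (3.14%). The plot of the 6 genes by library shows their levels at all stages.

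**Figure D1:**
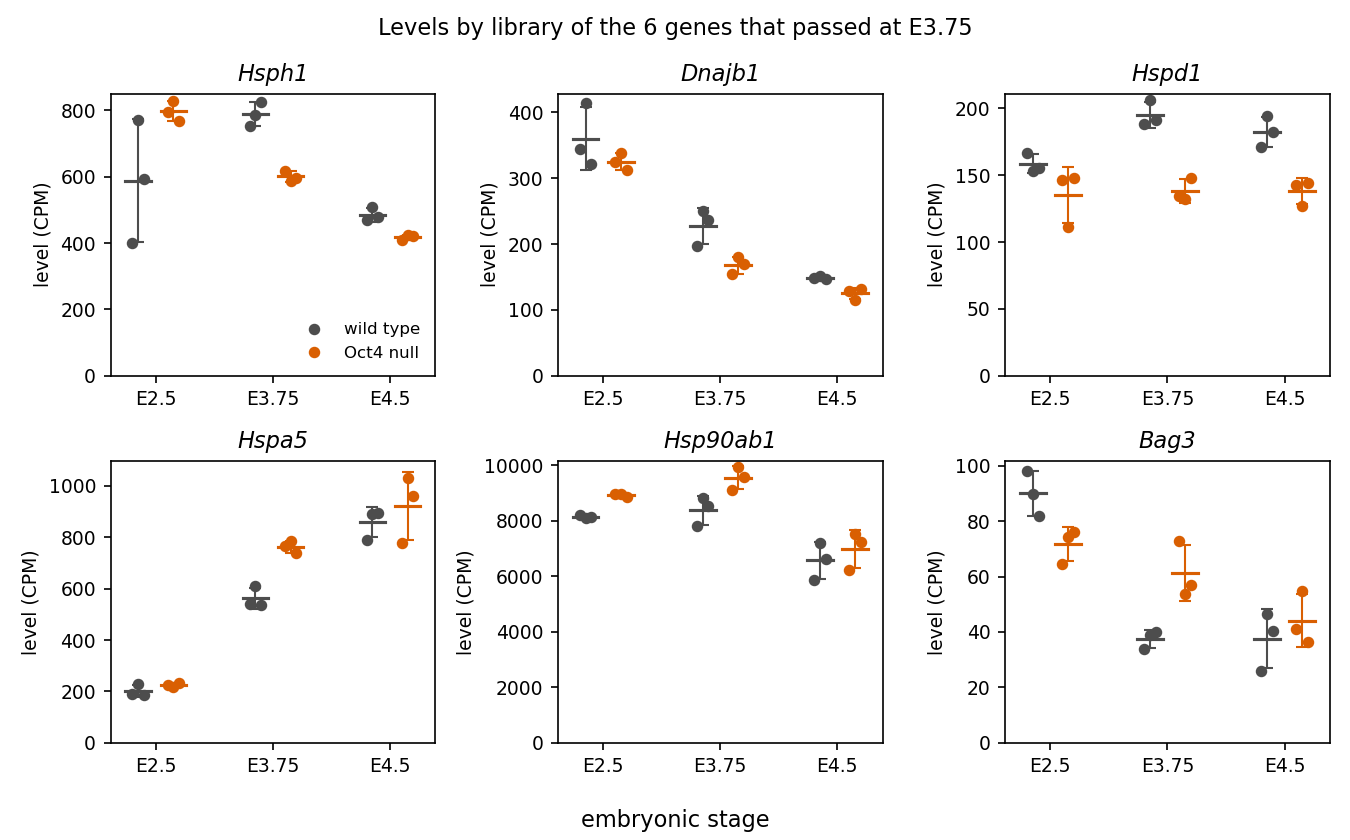
Level in CPM (vertical axes, from 0) of the 6 genes that passed at E3.75, by embryonic stage, with a point for each library, a bar at the mean of 3 and an error bar of 1 SD. At E3.75 the null libraries of Hsph1, Dnajb1 and Hspd1 all lie below the wild type libraries and those of Hspa5, Hsp90ab1 and Bag3 all above them.

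Hsph1, the HSP110 that exchanges nucleotide on HSP70 and helps to dissolve aggregates, stood at 754, 787 and 826 CPM in the wild type libraries 1 to 3 of E3.75. In the null libraries it stood at 618, 588 and 596 CPM. The genotypes did not overlap, and the difference was -0.39 (standard error, SE, 0.08; limma adjusted p = 0.00412). The call held whichever library was left out, but not with the first 2 libraries of each group (limma adjusted p = 0.189) or in a fit over all 18 libraries (0.102), the range over all alternatives being 0.00257 to 0.189.

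Dnajb1, the J protein that delivers clients to cytosolic HSP70 and is itself induced by heat, was at 197, 250.5 and 236 CPM in wild type and at 154, 179.6 and 169.7 CPM in null libraries. All null values were lower, with a difference of -0.44 (SE 0.13; limma adjusted p = 0.0348). Its call was lost when any of 4 libraries was left out (wild type 2 or 3, null 1 or 3), and with TMM scaling its adjusted p was 0.0591, within a range of 0.00889 to 0.308 over the alternatives.

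Bag3, an exchange factor of HSP70 that works with small heat shock proteins in selective autophagy, moved the other way. Wild type libraries held 33.8, 39.1 and 39.9 CPM and null libraries 72.8, 53.8 and 57.0 CPM. Each null library was above each wild type library, and the difference was 0.68 (SE 0.20; limma adjusted p = 0.0415). The call rested on 18 to 82 reads per library and was kept only without wild type library 2 among the 6 fits that left out a library, where the adjusted p ran from 0.0494 to 0.213. Hspb8, the small heat shock protein known as its partner, was at 33.8, 40.8 and 36.5 CPM in wild type and 78.6, 39.3 and 69.6 CPM in null libraries, a difference of 0.68 that did not pass (limma adjusted p = 0.074). Its genotypes overlapped through null library 2. The other BAG genes did not pass either, with differences from -0.32 for Bag1 to 0.18 for Bag4.

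Hspa8, the constitutive cytosolic HSP70, was at 88.4, 84.1 and 95.5 CPM in wild type and 113, 101.8 and 96.7 CPM in null libraries of E3.75. The genotypes did not overlap, yet the difference of 0.22 was within the error of the test (SE 0.15; limma adjusted p = 0.424). Hspa4, a relative of Hsph1, had a difference of -0.07 (adjusted p = 0.726 by limma), and Hspa9, the mitochondrial HSP70, one of -0.01 (0.982). Hspbp1, an exchange factor counted with this class, was at 0.12 (0.574). Of the 6 genes of this class 1 rose and 1 fell (33.3%), beside 8.2% of all genes that passed. Neither call held with the first 2 libraries of each group.

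Hsp90ab1, the constitutive cytosolic HSP90, rose at E3.75 from 7796, 8807 and 8534 CPM in wild type to 9125, 9950.5 and 9570.2 CPM in null libraries. The difference was 0.19 (SE 0.05; limma adjusted p = 0.025), a 1.14-fold ratio of means. It was the smallest change among the 6 calls and it was lost when any of 4 libraries was left out (wild type 1 or 3, null 2 or 3), with adjusted p from 0.012 to 0.0859. Hsp90aa1, the inducible form, was at 376, 404 and 366 CPM in wild type and 358, 379 and 412 CPM in null libraries. Its genotypes overlapped, at a difference of 0.00 (95% interval -0.20 to 0.21).

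In the endoplasmic reticulum, Hspa5, the HSP70 also known as BiP, was at 539.7, 610.4 and 535 CPM in wild type and at 765, 785 and 737 CPM in null libraries of E3.75. All 3 null libraries were above all wild type libraries. The difference was 0.44 (SE 0.09; limma adjusted p = 0.00213), a 1.36-fold ratio of means, and it passed in 15 of 16 alternatives, the exception being the first 2 libraries of each group (range of adjusted p 0.000301 to 0.0734). Hsp90b1, the HSP90 of the same compartment, was at 583, 623 and 665 CPM in wild type and 687, 771 and 737 CPM in null libraries. It did not overlap between genotypes but did not pass (0.23, SE 0.09; limma adjusted p = 0.1).

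The J proteins of the endoplasmic reticulum did not move as a block, as the plot of these genes by library shows. Dnajb9, a J protein that holds back the stress sensor Ire1, was at 7.52, 12.7 and 0 CPM in wild type and 19.7, 13.1 and 18.1 CPM in null libraries of E3.75. The library at 0 had 576078 reads, which allows a level of up to 5.21 CPM for counting error alone, and the gene did not pass (limma adjusted p = 0.0884). Dnajc10, which reduces disulfide bonds, was at 54.5, 65.4 and 50.3 CPM in wild type and 34.7, 37.8 and 41.7 CPM in null libraries. It was lower in each null library, a difference of -0.56 that did not pass (limma adjusted p = 0.0962). Dnajb11 and Dnajc3 had differences of 0.14 and 0.19 (limma adjusted p = 0.679 and 0.662), with overlapping genotypes.

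**Figure D2:**
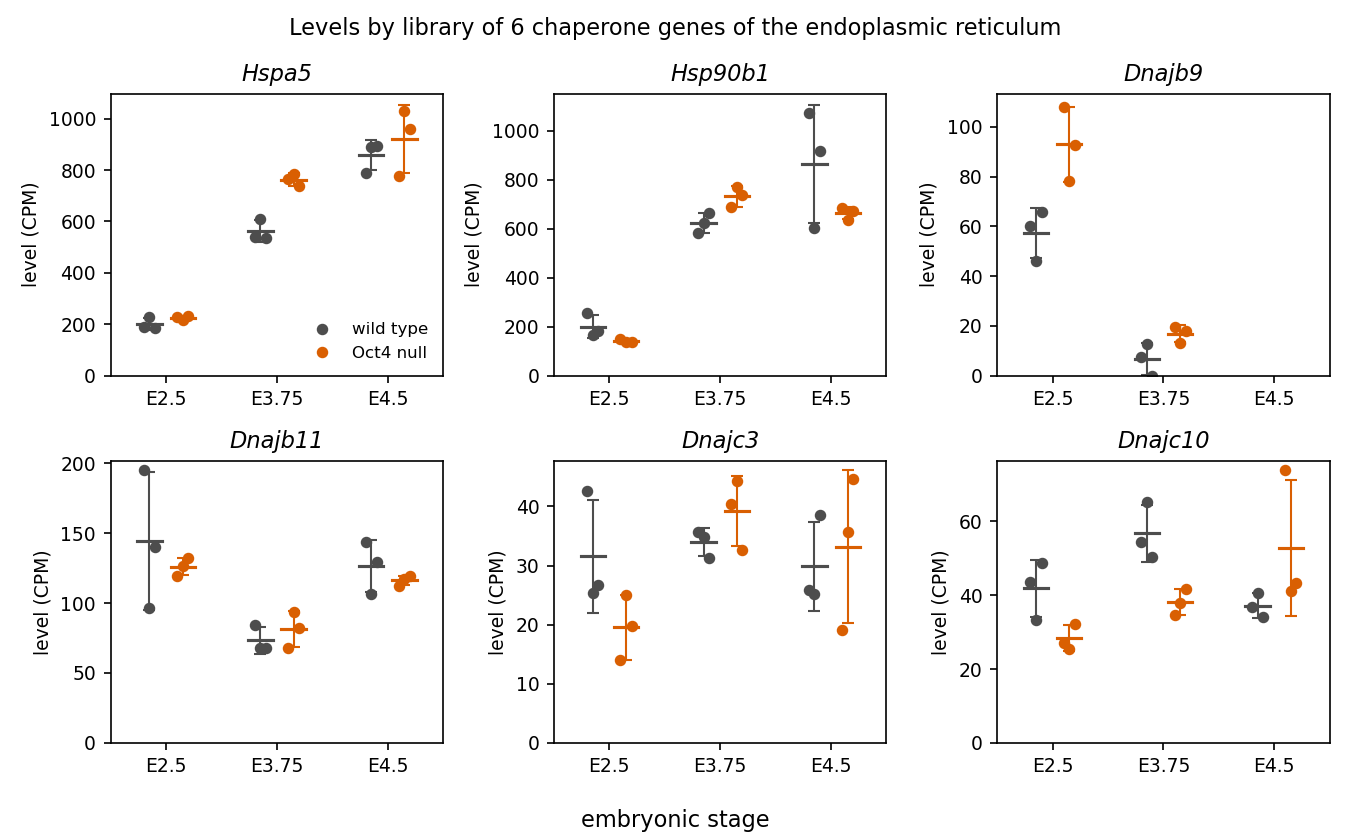
Level in CPM (vertical axes, from 0) of 6 chaperone genes of the endoplasmic reticulum by stage, with a point for each library, a bar at the mean of 3 and an error bar of 1 SD; Dnajb9 has no values at E4.5. Hspa5 is higher in all null libraries at E3.75. Dnajc10 is lower in all null libraries at E2.5 and E3.75 and higher in all of them at E4.5. There its null library 2 (41.1 CPM) nearly meets wild type library B (40.7 CPM), and null library 1 stands far above (74.0 CPM).

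Of the mitochondrial chaperonin genes Hspd1 fell at E3.75, and Hspe1 did not pass at any stage. Hspd1, which forms the chamber, was at 188, 206 and 191 CPM in wild type and at 134, 132 and 148 CPM in null libraries of E3.75. The genotypes were apart, with a difference of -0.50 (SE 0.12; limma adjusted p = 0.0149). The call was lost without wild type library 3, null library 1 or null library 2, with adjusted p from 0.0158 to 0.0653 over the 6 fits that left out a library.

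Its lid Hspe1, from the shared promoter printed above, was at 338, 411 and 378 CPM in wild type and 287, 322 and 301 CPM in null libraries of E3.75. The null libraries were again all lower, and the difference of -0.31 did not pass (SE 0.10; limma adjusted p = 0.0735). A pseudogene row of the same table, Hspd1-ps3, was at 18.8, 20.4 and 19.1 CPM in wild type and 6.94, 11.6 and 9.74 CPM in null libraries (limma adjusted p = 0.0948). Reads may be split between near-identical copies, so the level of Hspd1 is uncertain to that extent, and the same holds for Tcp1, Cct3, Hspa9 and Dnajc19, whose pseudogenes were also counted.

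TRiC did not pass at E3.75 in any of its 8 measured subunits, beside 8.2% of all genes that passed. Summed over the 8, the level was 10452 ± 327 CPM in wild type embryos, against 10461 ± 116 CPM in null ones (mean ± SD, n = 3 each). Tcp1, the first subunit, was at 880.1, 778 and 908 CPM in wild type and 733, 675 and 730.3 CPM in null libraries. It lay lower in each null library and just missed the threshold (-0.26, SE 0.08; limma adjusted p = 0.0539). Cct7 lay higher in each null library (0.14; limma adjusted p = 0.138), and the other 6 subunits had overlapping genotypes and differences between -0.14 and 0.03. By sign, 2 subunits were higher and 6 lower, beside 3015 higher and 3633 lower of all 6648 genes. With TMM or DESeq2 scaling, however, 4 subunits were higher and 4 lower.

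**Figure D3:**
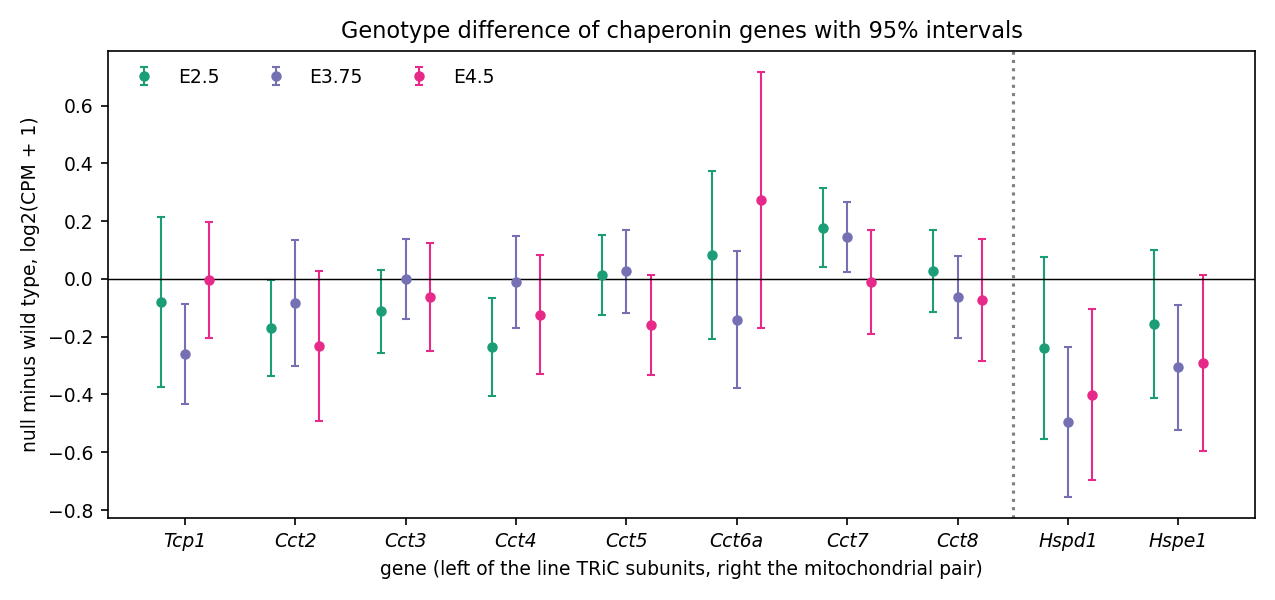
Null minus wild type difference in log2(CPM + 1) (vertical axis) of 8 TRiC subunits and the mitochondrial pair, with limma 95% intervals from 3 libraries per genotype, in a colour for each stage; Cct6b, not measured at E3.75, is left out. The points of Hspd1 and Hspe1 lie below 0 at all 3 stages, and at E3.75 both intervals exclude 0, while most TRiC intervals cross it.

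The J proteins of class C are a mixed group with cytosolic, nuclear, mitochondrial and secretory members. Of 18 measured at E3.75 none passed, beside 8.2% of all genes. By sign 11 were higher and 7 lower in null embryos, beside 3015 higher and 3633 lower of all 6648 genes. The differences of the 18 ran from -0.65 for Dnajc1 to 0.37 for Dnajc8, a J protein tied to RNA splicing. Dnajc13, which acts on endosomes, was lower in each null library (-0.51; limma adjusted p = 0.102), and Dnajc7, which binds both HSP70 and HSP90, was higher in each (0.22; adjusted p = 0.237 by limma). Over all 51 genes, 18 did not overlap between genotypes (35.3%), 10 of them higher and 8 lower in null, beside 27.2% of all genes (11.4% higher, 15.7% lower). The filter made before deposit, about 10.4 CPM in 3 of 6 libraries at this stage, can be met through 1 genotype alone. Among the 18, Dnajc1 reached that level in 3 wild type libraries and 1 null library. Dnajb9 reached it in 1 wild type library and 3 null libraries.

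At E2.5, before the blastocyst forms, none of the 53 genes passed by limma, beside 0.593% of all genes. At an unadjusted p under 0.05 there were 15 (6 higher, 9 lower), beside 20.4% of all genes. With edgeR 0 passed, beside 2.53% of all genes, and with DESeq2 1 (Dnajc15, 1.89%), beside 3.28%. The genotypes did not overlap for 23 genes (43.4%), 6 higher and 17 lower in null, beside 27.8% of all genes (13.6% higher, 14.1% lower). Without wild type library 2 limma called 7 (13.2%), beside 10.9% of all genes, and without wild type library 1 it called 2 (3.77%), beside 5.51%.

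The 3 genes with the smallest p at E2.5 were J proteins. Dnajb9 was at 60.0, 46.1 and 65.7 CPM in wild type and 108, 78.0 and 92.8 CPM in null libraries, higher in each (0.69, SE 0.19; limma adjusted p = 0.0924). Dnaja2, a partner of cytosolic HSP70 in folding, was at 439.6, 357 and 389.9 CPM in wild type and 315, 276 and 327 CPM in null libraries, lower in each (-0.37, SE 0.11; limma adjusted p = 0.112). Dnajc15, a mitochondrial J protein, was at 619, 397 and 447 CPM in wild type and 345, 336 and 359 CPM in null libraries, again lower in each (-0.47, SE 0.14; limma adjusted p = 0.112). Each of the 3 stood apart between genotypes, and none passed.

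Both cytosolic HSP90 genes were apart between genotypes at E2.5, in opposite directions. Hsp90aa1 was at 470.1, 385 and 363 CPM in wild type and 317, 324 and 315 CPM in null libraries (-0.34, SE 0.11; limma adjusted p = 0.126). Hsp90ab1 was at 8205, 8101 and 8141 CPM in wild type and 8976, 8960.0 and 8865 CPM in null libraries (0.13, SE 0.04; limma adjusted p = 0.131). Neither passed, although the 3 libraries of Hsp90ab1 lay close together within each genotype.

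Hsph1 varied widely among wild type libraries at E2.5, at 399, 772 and 593 CPM, beside 795, 829 and 768 CPM in null libraries. Null library 3 lay below wild type library 2, so the genotypes overlapped (0.49, SE 0.18; limma adjusted p = 0.162). Dnajb1 was at 345, 414 and 321 CPM in wild type and 325, 338 and 312 CPM in null libraries, with overlap (-0.14; limma adjusted p = 0.511). Hspa8, at 80.7, 86.4 and 72.1 CPM in wild type and 99.1, 90.0 and 96.5 CPM in null libraries, did not overlap but did not pass (0.26; limma adjusted p = 0.364).

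Hspa5 overlapped at E2.5, with 189.8, 229 and 187 CPM in wild type and 227, 216 and 232 CPM in null libraries (0.16; limma adjusted p = 0.478). Hspd1 was at 167, 153 and 156 CPM in wild type and 146, 111 and 148 CPM in null libraries, lower in each (-0.24; limma adjusted p = 0.368). Hspe1 was at 209, 219 and 199 CPM in wild type and 204, 172 and 188 CPM in null libraries, with overlap (-0.16; limma adjusted p = 0.477). Of these mitochondrial partners, only Hspd1 was apart at this stage, and neither passed. Tcp1 overlapped widely, with 400.3, 600.2 and 537 CPM in wild type and 468, 512 and 455 CPM in null libraries (-0.08; limma adjusted p = 0.769).

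At E4.5 none of the 47 genes passed by limma, beside 0% of all 6545 genes, where limma called 0 genes, edgeR 42 and DESeq2 112. At an unadjusted p under 0.05 there were 5 of the 47 (3 higher, 2 lower), beside 15% of all genes, and edgeR and DESeq2 called 0 of them. The genotypes did not overlap for 10 (21.3%), 4 higher and 6 lower in null, beside 22.2% of all genes (12.2% higher, 9.99% lower).

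Hspd1 had the smallest p at E4.5, at 171, 194 and 182 CPM in wild type libraries A, B and C and 142, 127 and 144 CPM in null libraries. It was lower in each (-0.40, SE 0.14; limma adjusted p = 0.21). Hspe1, at 201, 227 and 216 CPM in wild type and 151, 190.2 and 187 CPM in null libraries, was lower in each as well (-0.29, SE 0.14; limma adjusted p = 0.345). Thus the mitochondrial pair was apart in the same direction as at E3.75 without passing.

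Dnajb6, a J protein that keeps aggregation-prone proteins soluble, was at 27.6, 17.4 and 23.0 CPM in wild type and 32.9, 36.5 and 37.2 CPM in null libraries of E4.5 (0.65, SE 0.26; limma adjusted p = 0.281). Dnajb14, a membrane J protein of the endoplasmic reticulum measured at this stage alone, was at 7.37, 21.3 and 17.5 CPM in wild type and 41.1, 24.3 and 22.3 CPM in null libraries (0.95, SE 0.41; limma adjusted p = 0.299). Both were higher in each null library and both rest on low counts.

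Hsph1 at E4.5 was at 469.6, 509.9 and 478 CPM in wild type and 408, 423 and 419.9 CPM in null libraries (-0.22; limma adjusted p = 0.323). Dnajb1 was at 149, 151 and 147 CPM in wild type and 129, 116 and 131 CPM in null libraries (-0.25; limma adjusted p = 0.394). Each of these genes, which had passed at E3.75, was lower in every null library again. Hspa5, in contrast, overlapped, with 790.0, 889.97 and 892 CPM in wild type and 775, 1031 and 959 CPM in null libraries (0.10; limma adjusted p = 0.705).

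Hsp90ab1 also overlapped at E4.5, with 5876, 7207 and 6627 CPM in wild type and 6215, 7521 and 7242 CPM in null libraries (0.09; limma adjusted p = 0.65). Hsp90aa1 was at 259.7, 268 and 265 CPM in wild type and 203, 275 and 237 CPM in null libraries, with overlap (-0.16; limma adjusted p = 0.58). Hspa8 was at 51.6, 46.5 and 50.5 CPM in wild type and 49.3, 53.2 and 64.8 CPM in null libraries, with overlap (0.16; limma adjusted p = 0.72). These 3 cytosolic chaperones thus did not stand apart at this stage, and Bag3, with a difference of 0.25 (adjusted p = 0.681 by limma), did not either.

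Tcp1 was at 632, 630.2 and 649 CPM in wild type and 666, 599 and 641 CPM in null libraries of E4.5, a difference of 0.00 (95% interval -0.21 to 0.20). By sign 8 of the 9 TRiC subunits were lower in null embryos, beside 2882 of all 6545 genes, none with an unadjusted p under 0.05. With TMM and DESeq2 scaling 8 were lower as well, beside 3256 and 3194 of all genes. The differences of the 9 ran from -0.23 to 0.27, with a median of -0.06. Cct5 was the subunit whose genotypes did not overlap (-0.16; limma adjusted p = 0.362). Summed over the 9, the level was 7872 ± 271 CPM in wild type embryos, against 7476 ± 386 CPM in null ones (mean ± SD, n = 3 each).

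Whether the genotype effect differed between stages was tested on its own, over the 4 groups of each pair of stages. From E2.5 to E3.75 the effect on Hsph1 went from 0.49 to -0.39, a difference of -0.88 (SE 0.20; limma adjusted p = 0.0354). It was the 1 gene that passed of 48, beside 1.54% of all 5893 genes in both stages. The call held in 3 of 12 fits that left out a library, with adjusted p from 0.000238 to 0.0953, and was lost with the first 2 libraries (0.574). Hsp90b1 and Bag3 came next (0.70 and 1.00; limma adjusted p = 0.0507 for both), each lower in null embryos at E2.5 and higher at E3.75.

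No gene of the 45 tested between E3.75 and E4.5 passed, beside 0.204% of all genes, with 4 at an unadjusted p under 0.05, beside 14.3% of all genes. The smallest p there belonged to Dnajc10, whose effect went from -0.56 to 0.45 (limma adjusted p = 0.179), and to Hsp90b1, from 0.23 to -0.34 (adjusted p = 0.198 by limma). At E4.5 Dnajc10 was at 36.8, 40.7 and 34.0 CPM in wild type and 74.0, 41.1 and 43.2 CPM in null libraries. Its higher null mean there thus rests largely on null library 1, the library with the fewest reads (364936). Between E2.5 and E4.5 none of 46 passed, beside 0.105% of all genes, with 7 at an unadjusted p under 0.05, beside 14.9% of all genes. Dnajc15 went from -0.47 to 0.24 (limma adjusted p = 0.155) and Hsph1 from 0.49 to -0.22 (adjusted p = 0.156 by limma).

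**Figure D4:**
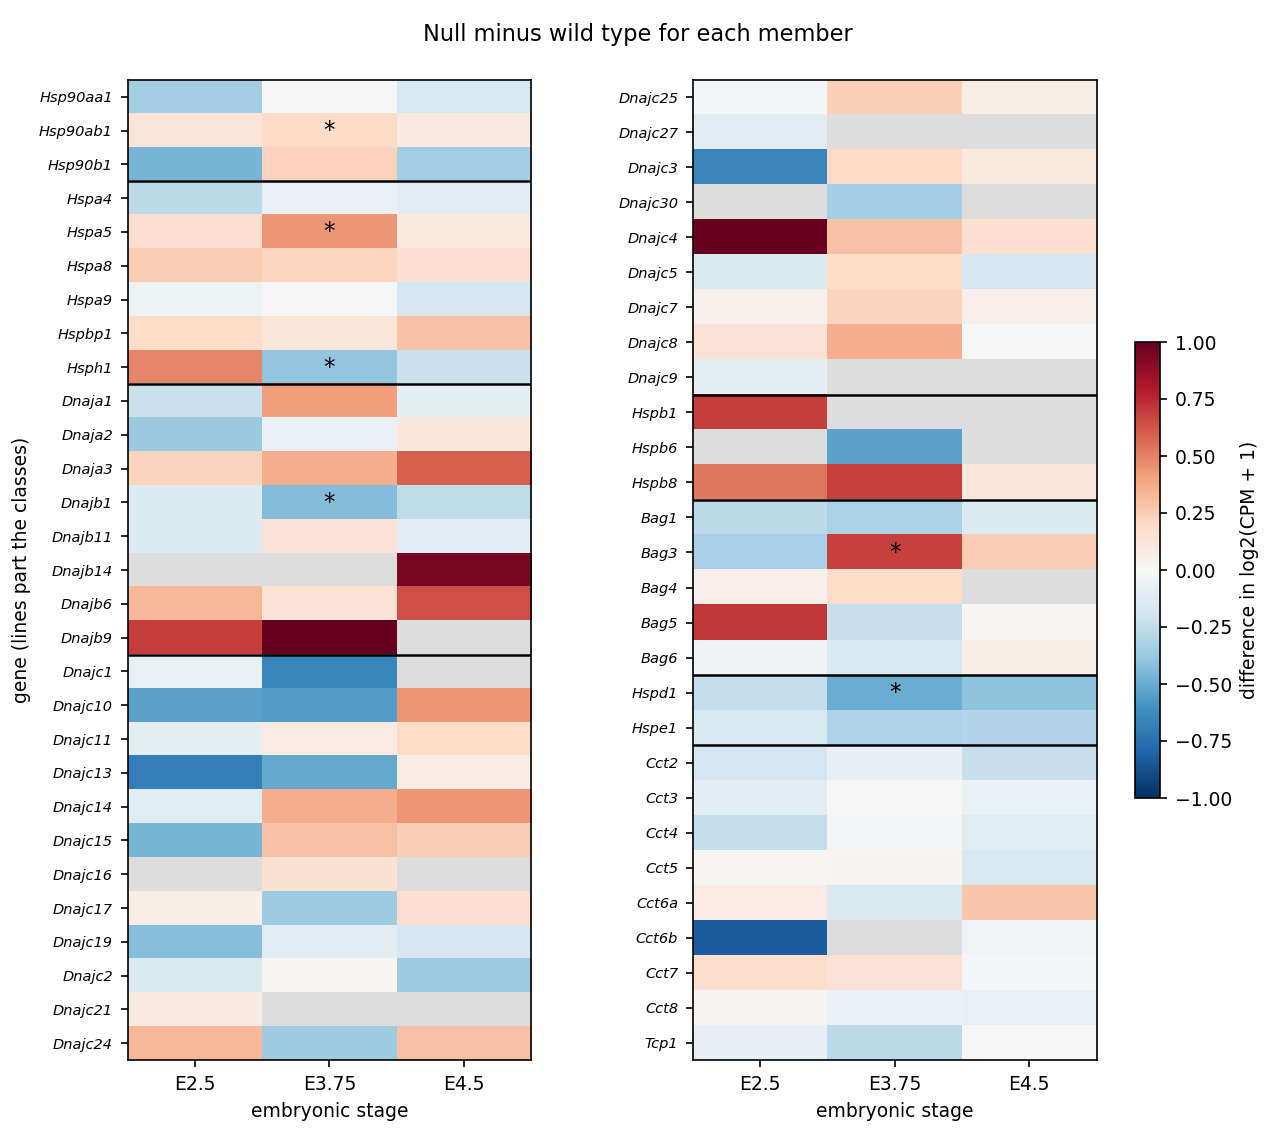
Null minus wild type difference in log2(CPM + 1) for each of the 57 genes (rows, by class, with lines between classes) at 3 stages (columns), in colour from -1 to 1, values beyond in the end colour; grey marks genes not measured at a stage and a star an adjusted p under 0.05. The 6 stars all lie at E3.75, and the rows of Hspd1 and Hspe1 are blue throughout.

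Of the 45 genes measured at all stages, 10 were higher in null embryos at each stage and 11 lower, by sign alone, as the heat map shows. In all 3 scalings (as deposited, TMM and DESeq2 factors) 8 were higher and 8 lower, the signs of Cct3, Cct4, Hspa9, Dnajc7 and Dnajc8 turning at a stage in at least 1 of them. The genes lower throughout were both mitochondrial chaperonin genes, Dnajb1, Dnajc19, Hspa4, Hspa9, Bag1, Cct2, Cct3, Cct4 and Tcp1. Those higher throughout were Hsp90ab1, Hspa5, Hspa8, Hspbp1, Hspb8, Dnaja3, Dnajb6, Dnajc4, Dnajc7 and Dnajc8. Hspd1 was the 1 gene of the 45 whose null libraries were below every wild type library at all 3 stages. At the single stages 14.1%, 15.7% and 9.99% of all genes lay lower without overlap. The share of all genes with 1 sign, or without overlap, at all 3 stages was not counted. The counts over the 45 are therefore not read as a trait of the group.

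Other genes of the folding pathways were taken from lists, which were also chosen with earlier results of these data known. Of 17 HSP90 and HSP70 cochaperones, 2 rose and 1 fell at E3.75 (17.6%), beside 8.2% of all genes. Stip1, which hands clients from HSP70 to HSP90, was at 1305, 1637 and 1317 CPM in wild type and 1995, 2053 and 1980 CPM in null libraries (0.51, SE 0.08; limma adjusted p = 0.000244). Sugt1, an adaptor of HSP90, rose by 0.29 (limma adjusted p = 0.0428). Fkbp4, the HSP90 partner of steroid receptors, was at 378, 509 and 465 CPM in wild type and 276, 289 and 303 CPM in null libraries (-0.63, SE 0.11; limma adjusted p = 0.00103). The genotypes of Stip1 and Fkbp4 were thus apart in opposite directions. Both also passed with the first 2 libraries of each group (limma adjusted p = 0.00535 and 0.0126), and Sugt1 did not (0.261).

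In the endoplasmic reticulum list 1 of 13 measured genes passed at E3.75 (7.69%), near the 8.2% of all genes: Manf, a secreted protein that binds Hspa5, rose from 243, 262 and 248 CPM in wild type to 392, 349 and 321 CPM in null libraries (0.49; limma adjusted p = 0.00622, and 0.0531 with the first 2 libraries of each group). Of these 13, 10 were higher in null embryos by sign, beside 3015 of all 6648 genes, and Atf4, Herpud1 and Pdia3 were lower. The listed transcription factors of the unfolded protein response did not pass and differed in sign. Xbp1 and Atf6 were at 1.02 and 0.97 (limma adjusted p = 0.1 and 0.0942), with as few as 3 and 4 reads in a library. Ddit3 was at 0.53 and Atf4 at -0.13 (limma adjusted p = 0.547 and 0.337). Among 8 mitochondrial folding and protease genes Clpx, the unfoldase of the ClpXP protease, rose (0.60; limma adjusted p = 0.0117, and 0.229 with the first 2 libraries), which is 12.5% of that list. None of 6 prefoldin genes and none of 3 TRiC assistants passed at E3.75, nor did Hsbp1, the 1 gene of the heat shock factor list measured there. No gene of these lists passed at E2.5 or E4.5, and Hsf1, the heat shock factor, was at 8.81 to 19.6 CPM at E2.5 and 5.52 to 20.5 CPM at E4.5, with overlapping genotypes.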

How the data were processed

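RNA of whole embryos was primed with oligo(dT) and amplified near the poly(A) tail, per the labels' protocols. The authors deposited 1 table of CPM values per stage, with edgeR and build mm9 named in the submitters' processing notes. Not given in the sources used here are aligner, counter and annotation. Each column sums to 1000000, so stages were scaled separately. Each gene has at least about 10.3 CPM in 3 of 6 libraries, a filter made before deposit. Divided by the CPM of 1 read, 121650 of 121650 values were whole to within 0.01 reads (100%), and these recovered reads give the depths.

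limma 3.58.1 (R 4.3.3) with a variance trend was fitted to log2(CPM + 1), a scale that understates changes of low genes; two-sided p-values were adjusted over all genes of a table. Nothing says whether libraries are separate litters, so p-values cover only the spread of these libraries, which may be technical. Alternatives were edgeR 4.0.16 and DESeq2 1.42.0 on recovered reads, scaling by TMM or by DESeq2's size factors, a pseudocount of 0.1 or of 5, only genes with a mean of at least 10 CPM, each library left out, the first 2 libraries of each group, all 18 libraries in 1 fit, and a replicate block. The 3 wild type columns of E4.5 share a name, so their letters A to C follow the columns. The fits were tested on simulated data.

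Genes named with all library values are those that passed, the 3 with the smallest p where none passed, and 9 fixed genes (Hsp90aa1, Hsp90ab1, Hspa8, Hspa5, Hsph1, Dnajb1, Hspd1, Hspe1, Tcp1); other genes were chosen after their values were seen. Between stages, those that passed or the 2 with the smallest p are named, and of each pathway list those that passed, up to 4. The members and lists were chosen with earlier results of these data known. Promoters are RefSeq's (GRCm38.p6); Hsp90aa1, Hsp90ab1, Hspa8, Hspa9, Bag4, Cct4, Dnajc2, Dnajc5, Dnajc11 and Dnajc30 were not matched. Of markers, 7 blood, 8 tract, 6 embryo and 7 handling markers were checked. Of the handling genes 1 or 2 were measured, at 5.52 to 31.6 CPM in sum. Among them Ier2 lay lower in each null library at E2.5 (-0.70, limma adjusted p = 0.291). It overlapped at E3.75 and lay higher in each null library at E4.5 (0.88, limma adjusted p = 0.327).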

Additional observations from a re-analysis of the deposited data

Results flagged for a closer look

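The genotype effect on Hsph1, the HSP110 exchange factor, differed between E2.5 and E3.75 by -0.88 (limma adjusted p = 0.0354, higher in null embryos at E2.5 and lower at E3.75). It was picked out because the difference between the stages passed its own test, as 1 of 48 genes, beside 1.54% of all genes. The 3 wild type libraries of E2.5 ran from 399 to 772 CPM. Without wild type library 1 of E2.5, the lowest, the difference was -0.63 (limma adjusted p = 0.0123). The call held in only 3 of the 12 fits that left out a library and in 8 of the 18 alternatives. Over these 18 the limma adjusted p ran from 0.000238 to 0.574.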

How the results depend on the processing

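At E2.5 limma called 0 to 7 members when a library was left out (1 to 773 of all genes). The DESeq2 test called 1, lower (232 of all genes), and all 18 libraries in 1 fit 1, Hsph1, higher (139 of all genes). At E3.75 limma called 2 to 7 when a library was left out (209 to 652 of all genes), the 2 being without wild type library 3. It called 0 with the first 2 libraries of each group (155 of all genes). The DESeq2 test called 3 at E3.75 (288 of all genes) and all 18 libraries in 1 fit 3 (213 of all genes). At E4.5 the count was 0 in every alternative run, where 0 to 221 of all genes were called. For the effect at E3.75 minus that at E2.5 the count was 0 to 5 (7 to 275 of all genes) when a library was left out. It was 0 with the first 2 libraries and 3 with a pseudocount of 5. For E4.5 minus E3.75 and E4.5 minus E2.5 it was 0 to 1, beside 2 to 39 and 0 to 52 of all genes when a library was left out. The 1 was Hsp90b1 without E4.5 wild type library B and Hsph1 without E2.5 wild type library 2. The cause of these shifts was not tested, beyond that fits with fewer libraries have fewer samples. Among genes named with every library's value, signs turned for Hsp90aa1 at E3.75 (-0.051 to 0.050 over fits that left out a library, negative without wild type library 1, wild type library 3 or null library 3, and -0.081 with the first 2 libraries) and for Tcp1, at E2.5 (-0.25 to 0.044, positive without wild type library 2) and at E4.5 (-0.039 to 0.037, positive without wild type library C or null library 2, and 0.0020 with the first 2 libraries). Other scalings moved the median of all genes by at most 0.06 within a stage, which turned the sign of members near 0: 27 were higher at E3.75 as deposited and 30 with TMM or DESeq2 factors, and at E4.5 25, 22 and 23. Deviations of same-numbered libraries of the genotypes correlated with r from -0.03 to 0.12 at E2.5 and E3.75. Taken from means of 3 libraries and carrying read sampling, they cannot settle whether the numbers pair samples. With a replicate block 0 members passed at E2.5 (30 of all genes) and 5 at E3.75 (438 of all genes), where Bag3 was lost. No block could be fitted at E4.5, whose wild type libraries carry no number. Low genes such as Bag3 and Dnajb9 rest on few reads, which limits what can be detected for them.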
